A study of Mus musculus with 6 samples.

Results

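The 42 genes described here are the mouse proteasome genes of the prefrontal cortex, out of 14969 genes tested. They were chosen by name: protein-coding genes whose symbol is Psma, Psmb, Psmc, Psmd or Psme followed by digits, with a mean normalized count of at least 10 over the 6 samples. Of 43 such genes in the deposited table, Psma8, the alpha subunit used in the testis, was left out by that minimum, with normalized counts of 7.96, 6.19 and 9.98 in Hetero samples and 15.5, 4.90 and 8.52 in WT samples. By the place of their products in the complex, 7 encode the alpha rings of the core, 7 the beta rings, 9 the base and 8 the lid of the regulatory particle. A further 6 were placed in the immunoproteasome group, 2 encode other activators and 3 encode assembly chaperones of the base. Of the 6, Psmb11 is known from the thymus and was placed with the immunoproteasome genes for this reading. Proteasome genes with other symbols, such as Sem1 and Adrm1, fall outside this choice and were read in a related list.

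The proteasome is the barrel-shaped protease that degrades ubiquitin-tagged proteins. Its alpha rings form the gate and its beta rings carry the active sites, while the base unfolds substrates with a ring of ATPases and the lid removes their ubiquitin. Under interferon or inflammation, cells can exchange the standard active subunits for inducible ones and add another activator cap, which gives the immunoproteasome. In neurons the proteasome removes synaptic and misfolded proteins, and in brain the inducible subunits are best known from microglia.

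Messenger RNA was sequenced from prefrontal cortex of juvenile C57BL/6J mice at postnatal day 28. The tested samples are 3 labelled Hetero, whose genotype is given as Cyfip2 mutant, and they were set against 3 WT samples. Cyfip2 encodes a subunit of the WAVE complex, which drives actin branching. The labels do not say which allele or which part of Cyfip2 is changed, nor whether each sample came from a separate animal, so p-values measure only the spread between these samples. In bulk tissue, fewer cells of a type and less RNA per cell cannot be told apart.

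The columns of the deposited table summed to between 29879143 and 30735443 normalized counts. The reads behind them were estimated at 25500000 to 43900000 per sample, with Hetero sample 3 the deepest. The estimate divides each column total by the spacing of its low values. Only 15.5% (Hetero sample 3) to 28.0% (WT sample 1) of values under 60 fitted that spacing, so it is approximate. Cyfip2 (chr11:46193850-46312859, GRCm38) had normalized counts of 20959, 21237 and 18285 in Hetero samples, against 31933, 30496 and 27503 in WT samples. All 3 Hetero samples lay below all 3 WT samples. Its fitted log2 change was -0.57 (standard error 0.07), and the adjusted p from limma over all tested genes was 0.31; the exact two-sided permutation p was 0.1, the smallest that 20 assignments can give. At an adjusted p under 0.05, limma called 0 of 14969 genes (0.0%), and 573 genes (3.83%) had an unadjusted p under 0.05. Defining markers of cortical neurons were present throughout: all 10 listed genes were tested, none was at 0, and their summed normalized counts ran from 313354 to 331608 in Hetero samples and from 329597 to 339579 in WT samples. Of these 10 genes 0 were called, but 3 had an unadjusted limma p under 0.05, beside 3.83% of all tested genes. The log2 changes of these 3 were 0.14 for Rbfox3, -0.11 for Camk2a and -0.10 for Slc17a7. The groups did not overlap for 4 of the 10, 2 above WT and 2 below, beside 8.72% of all tested genes.

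No proteasome gene passed the test between Hetero and WT cortex: limma called 0 of the 42 genes at an adjusted p under 0.05, beside 0.0% of all tested genes, and 0 of 42 had an unadjusted p under 0.05, beside 3.83% of all tested genes (1.66% higher in Hetero and 2.17% lower). The smallest unadjusted p was 0.203, for the base chaperone Psmd10, and the adjusted p of every proteasome gene was 1.00. The fitted change was above 0 for 21 genes and below 0 for 21, while 49.1% of all tested genes were above 0. The median log2 change of the 42 genes was -0.00048, beside -0.0019 over all tested genes. The 3 Hetero values did not overlap the 3 WT values for 3 of the 42 genes (7.14%), beside 8.72% of all tested genes. Of these, Psmd10 and Psmd7 lay above WT, as 4.4% of all tested genes did, and Psmd6 lay below, as 4.32% did.

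The 95% intervals, each for a single gene and not adjusted for reading 42 together, also show how far each gene could have moved. For 37 of 42 genes (88.1%) the 95% confidence interval of the Hetero to WT ratio lay within 1.25-fold in both directions, beside 55.5% of all tested genes. This held for all 31 core, base and lid genes, whose interval bounds ran from 0.836 for Psmb4 to 1.18 for Psma7. The wider limit of 1.5-fold held for 39 of 42 genes, beside 80.9% of all tested genes. The members lying beyond the narrower limit were Psmb8, Psmb9, Psmb11, Psme2 and Psmd10. The proteasome genes are abundant, with a median of the mean normalized counts of 1762 against 651 over all tested genes, and the median standard error of their log2 change was 0.065 against 0.097. These intervals rest on 3 samples a group and on the spread among them.

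**Figure D1:**
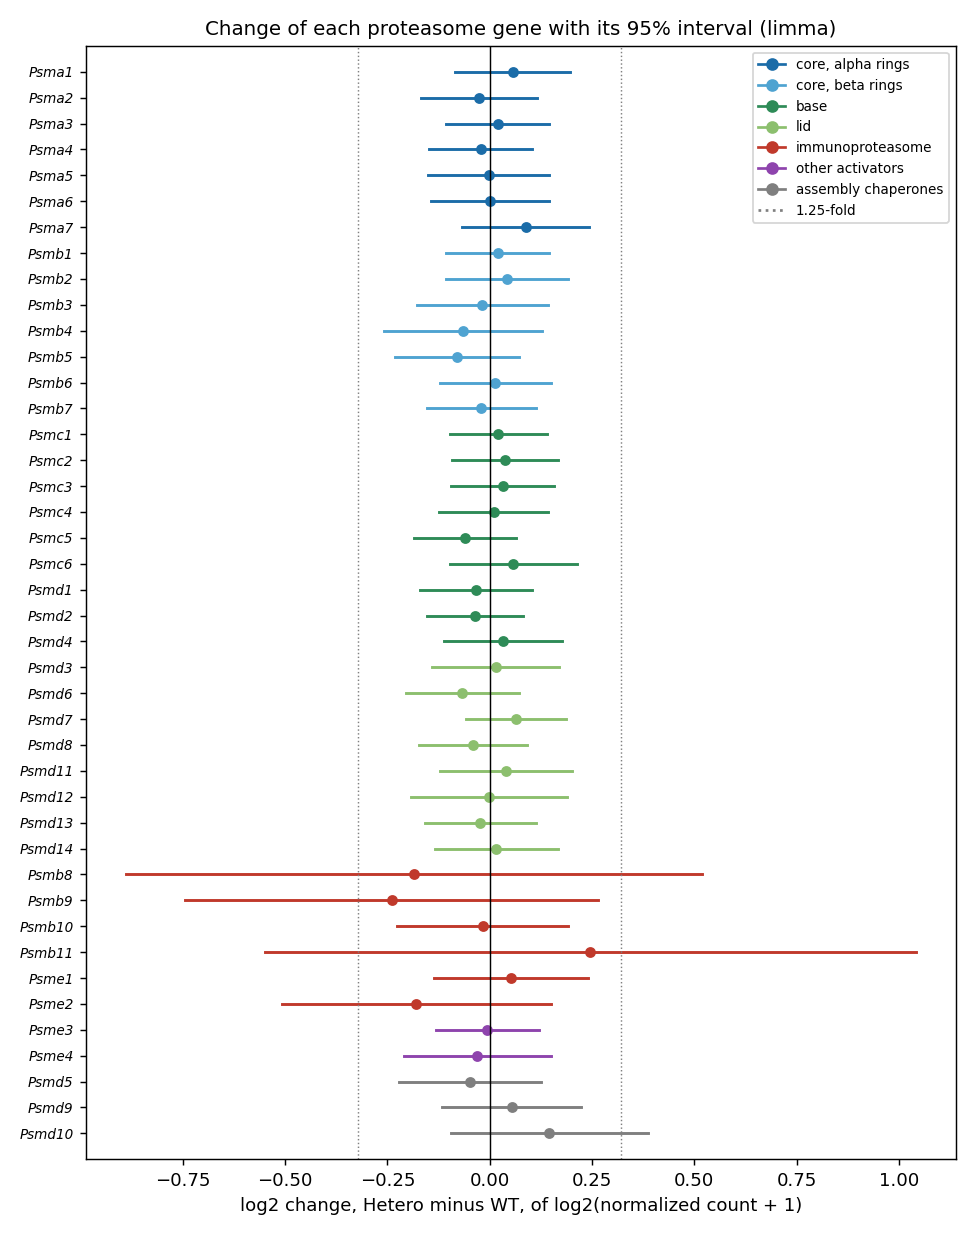
Fitted log2 change (Hetero minus WT, of log2(normalized count + 1)) of each of the 42 proteasome genes, coloured by group, with horizontal lines for the 95% interval from limma and dotted lines at 1.25-fold. Every interval crosses 0, and the intervals of the 31 core, base and lid genes all stay inside the dotted lines, while those of Psmb8, Psmb9 and Psmb11 are the widest.

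Because the promoters of proteasome genes are a known place of joint control, those of 3 core subunits and 1 immunoproteasome gene are shown first, as the reference genome has them. Windows are the bases before the RefSeq start (GRCm38.p6), printed 5′ to 3′ on the gene's own strand and cut back where a GENCODE exon of the gene begins. Capitals mark letters of an antioxidant response element (TGACNNNGC, the sequence read by Nfe2l1 and Nfe2l2 with small Maf proteins) or of a CCAAT box (read by the Nfy factors). Psma7 and Psmb5 are shown as the core genes of highest and lowest fitted change, Psmb6 as another standard active subunit, and Psme2 as an immunoproteasome gene whose window holds neither motif. Psma7 lies at chr2:180042465-180042714 on the minus strand, Psmb5 at chr14:54618023-54618245 on the minus strand, Psmb6 at chr11:70525107-70525356 on the plus strand and Psme2 at chr14:55591114-55591351 on the minus strand.
Psma7: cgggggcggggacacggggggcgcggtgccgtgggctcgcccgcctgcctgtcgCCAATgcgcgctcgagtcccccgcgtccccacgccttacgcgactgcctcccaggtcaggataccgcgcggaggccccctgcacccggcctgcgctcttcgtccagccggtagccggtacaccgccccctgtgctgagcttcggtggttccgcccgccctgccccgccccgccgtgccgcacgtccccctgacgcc
Psmb5: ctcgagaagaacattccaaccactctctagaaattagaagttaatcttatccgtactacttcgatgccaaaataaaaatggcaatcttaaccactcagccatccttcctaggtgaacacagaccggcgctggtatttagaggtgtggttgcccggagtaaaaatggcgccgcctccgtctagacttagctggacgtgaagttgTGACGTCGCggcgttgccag
Psmb6: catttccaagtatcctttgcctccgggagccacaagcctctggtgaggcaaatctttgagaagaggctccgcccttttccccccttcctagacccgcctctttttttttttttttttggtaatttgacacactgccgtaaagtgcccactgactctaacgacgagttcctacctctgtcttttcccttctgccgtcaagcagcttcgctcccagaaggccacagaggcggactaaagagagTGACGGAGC
Psme2: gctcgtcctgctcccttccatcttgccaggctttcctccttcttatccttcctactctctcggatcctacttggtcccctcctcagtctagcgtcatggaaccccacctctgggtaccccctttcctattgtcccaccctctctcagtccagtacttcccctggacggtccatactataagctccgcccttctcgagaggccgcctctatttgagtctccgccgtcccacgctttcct

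The element TGACNNNGC stood from base -47 to -39 before the start in Psmb5 and from base -9 to -1 in Psmb6, while Psma7 held a CCAAT box from base -196 to -192. Over all windows of 250 bases, searched on both strands, TGACNNNGC or its other form TGAGNNNGC was found in 10 of 27 core, base and lid windows (37.0%) and in 0 of 7 immunoproteasome windows, beside 23.0% of all 32851 promoter windows. TGACNNNGC alone, the form marked above, was in 4 of 27 (14.8%) and 0 of 7, beside 10.2% of all windows. The CCAAT box was in 10 of 27 (37.0%) and 2 of 7 (28.6%), beside 33.8% of all windows. The letters GAAA, any 2 bases, then GAAA, read by interferon-response factors, were in 3 of the 39 windows of all proteasome genes (7.69%), none of them an immunoproteasome gene, beside 2.98% of all windows. The GC box GGGCGG was in 22 of the 39 (56.4%), beside 32.7% of all windows. All windows here are those of 27025 genes, not only of the genes tested in cortex. RefSeq windows were matched for 36 of the 42 genes, some with more than 1 window, and not for Psmb1, Psmb2, Psmb7, Psmc3, Psmd3 and Psmd7. The windows of Psmb8, Psmb9, Psmb11 and the lid gene Psmd13 lie wholly inside GENCODE exons, and that of the base gene Psmd1 does so for 232 of its 250 bases; all were counted. These are letter matches only.

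The alpha rings, which gate entry to the core, had 4 genes above 0 and 3 below, with a median log2 change of 0.00066 and 0 of 7 called. Psma7 (chr2:180036374-180042433) gave 1921, 2130 and 2234 normalized counts in Hetero samples, against 2006, 1897 and 1998 in WT samples. Hetero samples 2 and 3 were above every WT sample and Hetero sample 1 was below WT samples 1 and 3, so the groups overlapped. It had a fitted log2 change of 0.09 (standard error 0.07), and the interval of the ratio was 0.955 to 1.18. For Psma1 (chr7:114264606-114276118) the Hetero samples had 1779, 1795 and 1836, against 1846, 1657 and 1706 in WT samples, and WT sample 1 was the highest of the 6. Psma2 (chr13:14613240-14674236) had 1526, 1560.1 and 1701 in Hetero samples, against 1649, 1607 and 1612 in WT samples, so that the highest and the lowest sample were both Hetero. The log2 changes of Psma3, Psma4, Psma5 and Psma6 lay between -0.02 and 0.02.

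The beta rings, which hold the active sites, had 3 genes above 0 and 4 below, with a median log2 change of -0.02 and 0 of 7 called. The chymotrypsin-like subunit Psmb5 (chr14:54614119-54618022) gave 1531, 1425 and 1635 normalized counts in Hetero samples, against 1628, 1583 and 1634 in WT samples. Hetero samples 1 and 2 were below every WT sample, and Hetero sample 3 was just above them. The fitted log2 change of Psmb5 was -0.08 (standard error 0.07), and the interval of the ratio was 0.852 to 1.05. The caspase-like subunit Psmb6 (chr11:70525367-70527858) had 1698, 1651 and 1783 in Hetero samples, against 1698, 1746 and 1637 in WT samples. The trypsin-like subunit Psmb7 (chr2:38588036-38644087) had 2551, 2532 and 2793 in Hetero samples, against 2682, 2673 and 2623 in WT samples. In both genes Hetero sample 3 was the highest of the 6 and the groups overlapped, with log2 changes of 0.01 for Psmb6 and -0.02 for Psmb7 (standard error 0.06 each).

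The other beta subunits have no active site. Psmb4 (chr3:94884093-94886961), a structural subunit, had 2085, 1753 and 2178 normalized counts in Hetero samples, against 2122, 1973 and 2182 in WT samples. Hetero sample 2 stood below the rest, and this gene had the largest standard error of the 31 core, base and lid genes, 0.09, beside a log2 change of -0.07. Psmb2 (chr4:126677630-126709714), another structural subunit, had 1243, 1189.5 and 1264 in Hetero samples, against 1147, 1179.8 and 1265 in WT samples, with the groups overlapping at a log2 change of 0.04. Psmb1 and Psmb3 had log2 changes of 0.02 and -0.02.

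The base had 6 genes above 0 and 3 below, with a median log2 change of 0.02 and 0 of 9 called. Psmc5 (chr11:106256154-106263120), an ATPase of the unfolding ring, gave 3517, 3417 and 3717 normalized counts in Hetero samples, against 3766, 3752 and 3585 in WT samples. Only Hetero sample 3 reached the WT range, and its fitted log2 change was -0.06 (standard error 0.06). Psmc6 (chr14:45329788-45349705), another ATPase of the ring, had 1506, 1638 and 1539 in Hetero samples, against 1608, 1468 and 1426 in WT samples, with the highest sample Hetero, the lowest WT, and a log2 change of 0.06. The scaffold and ubiquitin-binding subunit Psmd2 (chr16:20651652-20663414) had 6023, 6107 and 6549 in Hetero samples, against 6474, 6342 and 6323 in WT samples. Hetero samples 1 and 2 were below every WT sample and Hetero sample 3 above them, at a log2 change of -0.04. The ATPases Psmc1 to Psmc4, the scaffold Psmd1 and the ubiquitin receptor Psmd4 lay between -0.03 and 0.04.

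The lid had 4 genes above 0 and 4 below, with a median log2 change of 0.0064 and 0 of 8 called. Psmd7 (chr8:107580381-107588464), the partner of the deubiquitinase Psmd14, gave 2523, 2455 and 2546 normalized counts in Hetero samples, against 2421, 2451 and 2322 in WT samples. The groups did not overlap, though Hetero sample 2 and WT sample 2 lay close together, and the log2 change was 0.06 (standard error 0.05, interval of the ratio 0.961 to 1.14). Psmd6 (chr14:14112174-14120984), a scaffold subunit, had 1234, 1152 and 1188 in Hetero samples, against 1251, 1253 and 1237 in WT samples. All Hetero values were below all WT values, the nearest pair being Hetero sample 1 and WT sample 3, and the log2 change was -0.07 (standard error 0.06). Over all genes limma gave unadjusted p-values of 0.262 for Psmd7 and 0.305 for Psmd6. Psmd8 (chr7:29174188-29180701), another lid subunit, had 2257, 2239 and 2457 in Hetero samples, against 2372, 2401 and 2375 in WT samples, with Hetero sample 3 again the highest. The deubiquitinase Psmd14 and the scaffold subunits Psmd3, Psmd11, Psmd12 and Psmd13 had log2 changes between -0.02 and 0.04.

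Summed over the 31 core, base and lid genes, the Hetero samples had 67985, 67916 and 72323 normalized counts, against 70210.4, 69409 and 68543 in WT samples. Hetero samples 1 and 2 were the lowest of the 6 and Hetero sample 3 the highest. The means were 69408 ± 2525 in Hetero samples and 69387 ± 834 in WT samples (SD, n = 3 each).

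These genes stood high together in Hetero sample 3. That sample was the highest of the 6 for 19 of 31 core, base and lid genes (61.3%), beside 22.1% of all tested genes, and 28 of the 31 were above their own mean there, against 9 in Hetero sample 1 and 10 in Hetero sample 2. In WT samples 1 to 3 the counts were 21, 15 and 12. Over all tested genes, 7593 of 14969 were above their own mean in Hetero sample 3. Transcript length moved with the standing of Hetero sample 3. Over all tested genes the median deviation of Hetero sample 3 from the gene's mean was 0.092 on the log2 scale for transcripts under 1500 bases, 0.047 between 1500 and 2500 bases and -0.036 from 2500 bases up. Over the core, base and lid genes the same medians were 0.064 (15 genes), 0.065 (11 genes) and 0.028 (5 genes). By the same classes, Hetero sample 3 was the highest for 60%, 72.7% and 40% of these genes. Over all tested genes the shares were 40.6%, 29.7% and 14.6%. Above their own mean in Hetero sample 3 were 14 of 15, 11 of 11 and 3 of 5 core, base and lid genes. Over all tested genes those counts were 1710 of 2298, 2219 of 3380 and 3649 of 9267. The part of depth and length in this was not tested.

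Some long members stood the other way and some did not. Psme4, with a principal transcript of 6491 bases, Psmd1, with 3112 bases, and Psme3, with 2664 bases, were lowest in Hetero sample 3. Psmd2, with 2961 bases, and Psma2, with 2911 bases, were highest there. Across the 31 genes the Pearson correlation of this deviation with log2 length was -0.41, and across 14945 genes it was -0.25; genes share the library and are not independent replicates. Without Hetero sample 3, the fitted change was above 0 for 15 of 42 genes in place of 21, the median of the lid was -0.05 in place of 0.0064, and 0 genes were called.

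**Figure D2:**
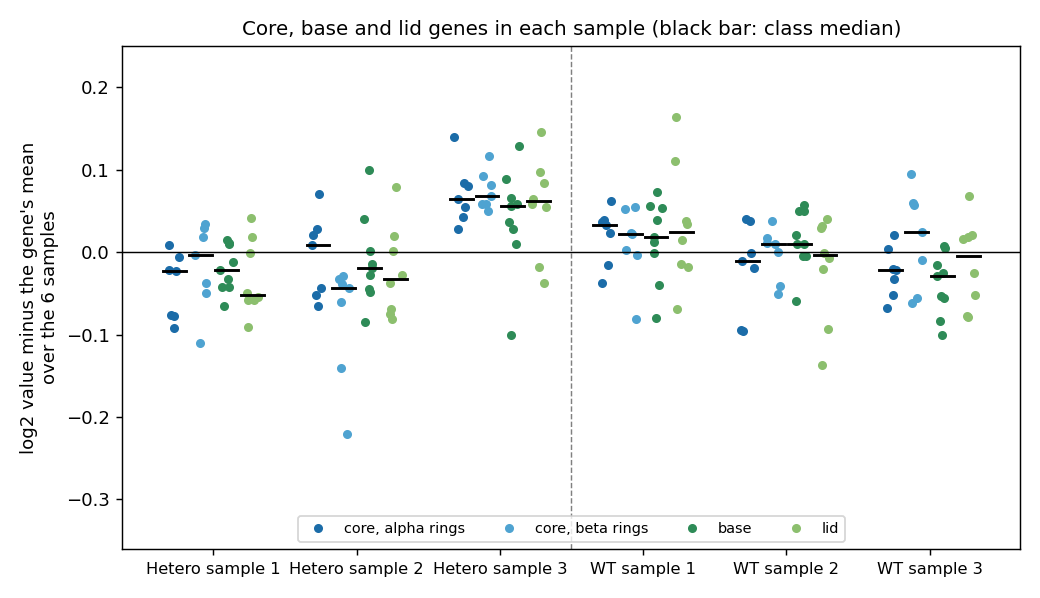
Deviation of each core, base and lid gene (its log2 value in the sample, less the mean of its 6 log2 values) in each sample, coloured by group, with black bars for the group medians. The points of Hetero sample 3 sit mostly above 0 (28 of 31), while those of Hetero samples 1 and 2 sit mostly below. Over all tested genes, 7593 of 14969 were above 0 in Hetero sample 3.

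Dividing by the length of the principal transcript put the subunits on 1 scale. The median of the 31 core, base and lid genes was 1526 normalized counts per kb, the lowest was Psmd11 at 551 and the highest Psmc5 at 2755, a ratio of 5.0, and 26 of 31 lay within 2 times of the median. The order depends on which transcript is taken: with the median length over protein-coding transcripts the ratio was 14.0, with Psmc6 lowest at 685 and Psmd2 highest at 9565. Variation between samples was small. The coefficient of variation over the 6 samples had a median of 3.87% for the core, base and lid genes. It was 8.31% for all tested genes, which have lower counts, and 14.6% for the immunoproteasome group, or 13.1% without Psmb11.

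**Figure D3:**
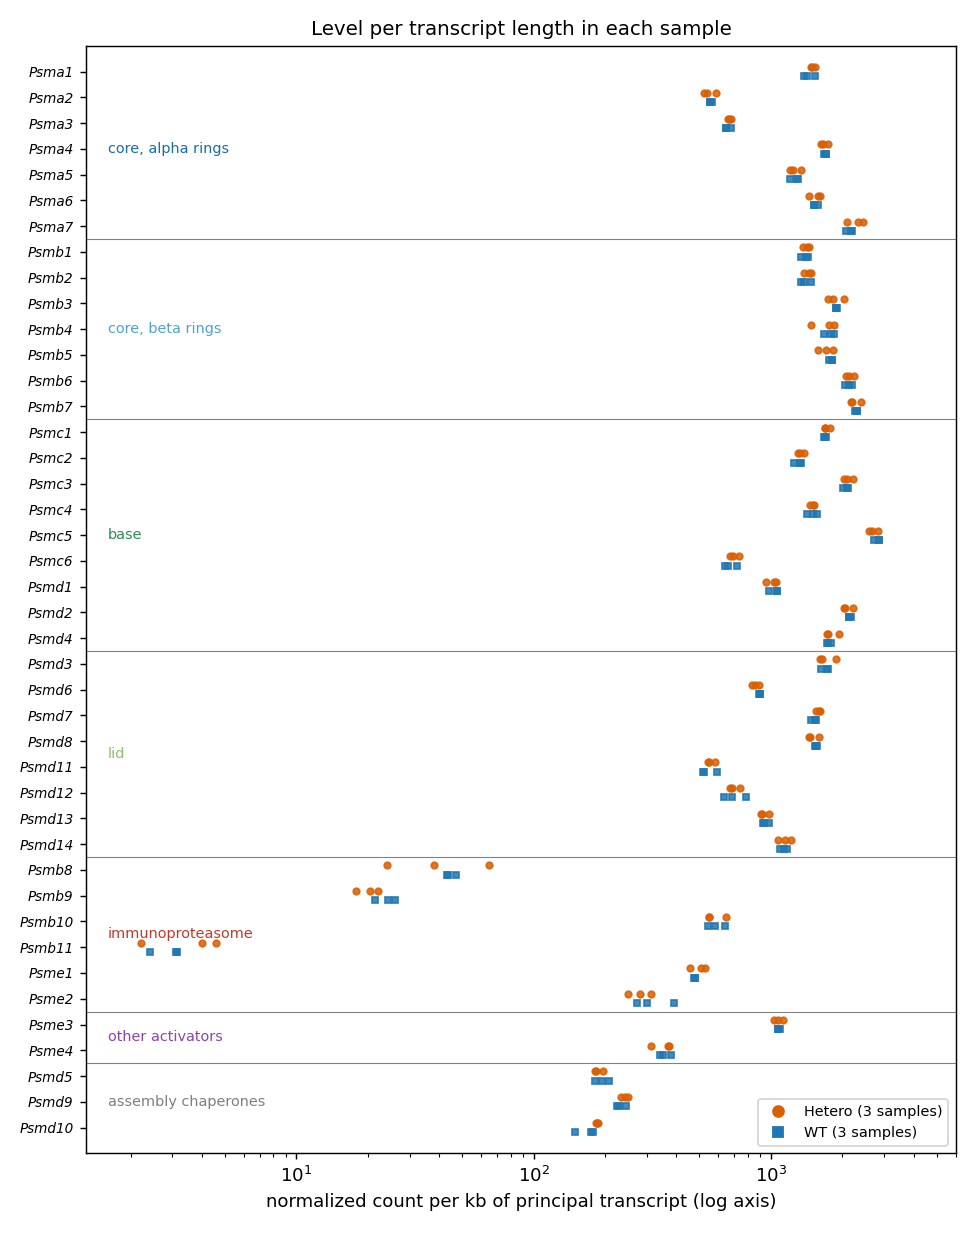
Normalized count per kb of the principal transcript on a log axis, for each proteasome gene in each of the 3 Hetero samples (circles) and 3 WT samples (squares), by group of the complex. The core, base and lid genes lie between 551 and 2755 on average, while Psmb8, Psmb9 and Psmb11 lie far below them.

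The immunoproteasome genes were low and unequal. Per kb of the principal transcript and relative to the core, base and lid median, Psmb10 stood at 38.3%, Psme1 at 31.9%, Psme2 at 19.7%, Psmb8 at 2.85%, Psmb9 at 1.44% and Psmb11 at 0.212%. With the median length over protein-coding transcripts, Psmb8 stood at 4.95%, Psmb9 at 3.31% and Psmb11 at 0.335%, while Psmb10, Psme1 and Psme2 stood at 34.4%, 44.8% and 21.4%. In the comparison, 2 of the 6 were above 0 and 4 below, with a median log2 change of -0.10, and 0 of 6 were called. Without Psmb11, 1 was above 0 and 4 below, with a median of -0.18. Psmb8 (chr17:34197721-34201454), the inducible counterpart of Psmb5, gave 62.1, 39.1 and 106 normalized counts in Hetero samples, against 70.9, 70.0 and 76.5 in WT samples. The WT samples lay close together and the Hetero samples lay on both sides of them, with the highest and the lowest both Hetero. The fit gave Psmb8 a log2 change of -0.18 (standard error 0.31), and the ratio could lie between 0.540 and 1.43. Its direction hung on single Hetero samples: without Hetero sample 2 the log2 change was 0.16, and without Hetero sample 3 it was -0.55, with an unadjusted limma p of 0.0465 and an adjusted p of 0.93.

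Psmb9 (chr17:34181987-34187764), the counterpart of Psmb6 and a neighbour of Psmb8 at 9.96 kb, had 29.95, 24.1 and 27.7 normalized counts in Hetero samples, against 28.9, 35.0 and 33.0 in WT samples. Hetero samples 2 and 3 were below every WT sample and Hetero sample 1 was not, and the log2 change was -0.24 (standard error 0.23, ratio 0.597 to 1.20). Psmb10 (chr8:105935735-105938444), the counterpart of Psmb7, had 722, 719 and 846 in Hetero samples, against 712, 763 and 837 in WT samples. Sample 3 was the highest of each group and the groups overlapped throughout, at a log2 change of -0.02 (ratio 0.855 to 1.14). Psmb11 (chr14:54621433-54629556), known from the thymus, had 19.5, 9.38 and 16.9 in Hetero samples, against 10.3, 13.3 and 13.2 in WT samples, values at which counting error is large.

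The cap that pairs with the immunoproteasome is built from Psme1 and Psme2, which lie 5.91 kb apart. Psme1 (chr14:55578123-55581529) had 505, 565 and 587 normalized counts in Hetero samples, against 533, 529.6 and 533 in WT samples, with the Hetero samples again on both sides of WT (log2 change 0.05, standard error 0.08). Psme2 (chr14:55587441-55591113) had 240.3, 271 and 299 in Hetero samples, against 288, 263 and 375 in WT samples, the groups overlapping except for WT sample 3, which was the highest (log2 change -0.18, standard error 0.15, ratio 0.704 to 1.11). Psme2 has a near copy, Psme2b, with a mean of 8.76, and Psmb7 a pseudogene, Psmb7-ps2, with a mean of 4.37, and reads could be split between such copies.

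Per kb, Psmb8 came to 2.24%, 1.52% and 3.56% of Psmb5 in Hetero samples, against 2.41%, 2.44% and 2.59% in WT samples. Psmb9 came to 0.939% ± 0.0925 of Psmb6 in Hetero samples and 1.13% ± 0.106 in WT samples (SD, n = 3 each). Psmb10 came to 25.7% ± 0.990 of Psmb7 in Hetero samples and 25.7% ± 2.39 in WT samples (SD, n = 3 each). With median transcript lengths the means over the 6 samples were 4.07% for Psmb8 and 2.64% for Psmb9, in place of 2.48% and 1.03% with the principal transcripts. The standard subunits exceeded their inducible counterparts in every sample, and for all 3 pairs the groups overlapped.

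**Figure D4:**
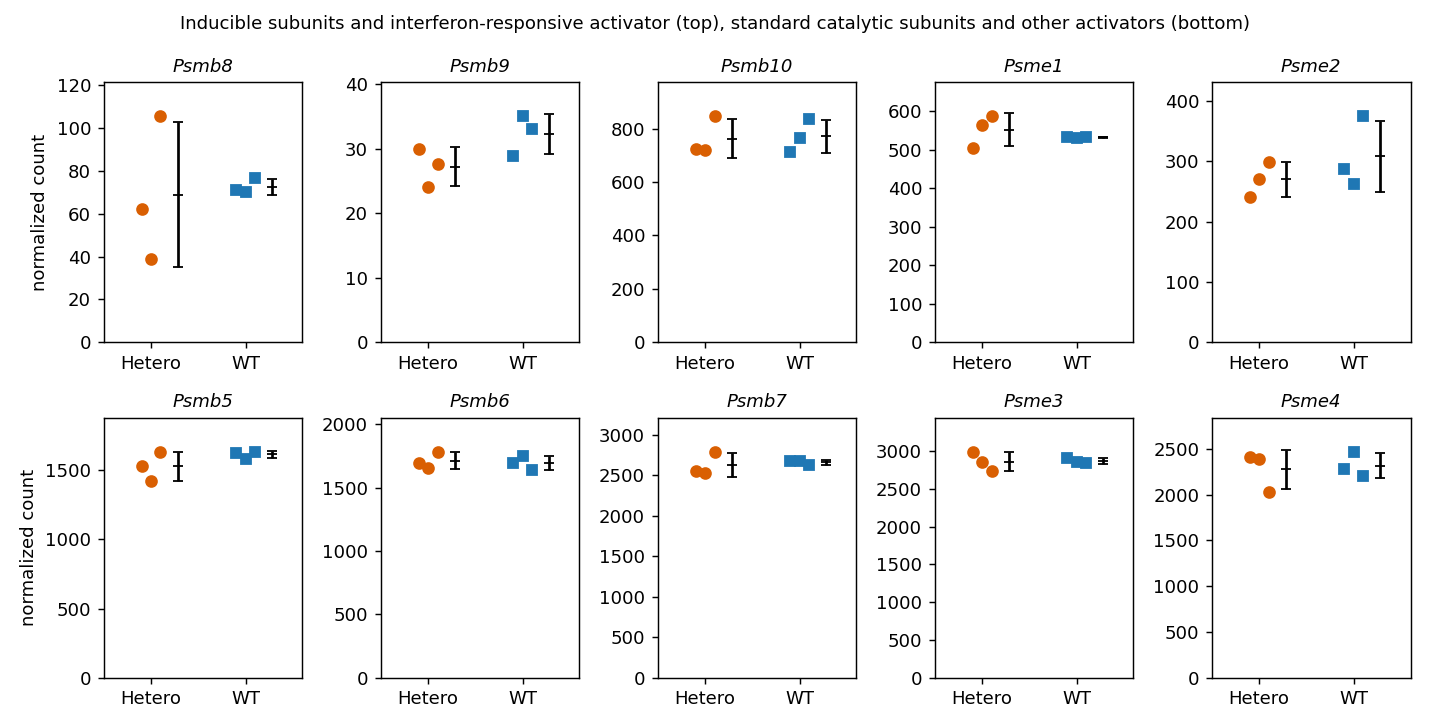
Normalized count in each of the 3 Hetero samples (circles) and 3 WT samples (squares), with the mean and SD beside them, for inducible subunits and their activator cap (top) and for standard active subunits and other activators (bottom); axes start at 0. Psmb8 spreads from 39.1 to 106 in Hetero samples and from 70.0 to 76.5 in WT samples.

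Markers of cells and signals known for the inducible subunits were read beside them. All 15 microglia markers had a fitted change below 0, with a median log2 change of -0.10. Over all tested genes 49.1% were above 0. Of the 15, 0 were called and 1 had an unadjusted limma p under 0.05, beside 3.83% of all tested genes. That 1 was the lysosomal protease Ctss (log2 change -0.19). The groups did not overlap for 1 of the 15, Irf8, which lay below WT (log2 change -0.31), as 4.32% of all tested genes did. The 15 markers share the libraries and are not independent replicates. Their summed normalized counts were 14956 to 16626 in Hetero samples and 15969 to 17952 in WT samples, so the groups overlapped. Of 10 interferon response genes 4 were above 0 and 6 below, with sums of 1918 to 2145 in Hetero samples and 1930 to 2103 in WT samples. Of 10 endothelial markers 5 were above and 5 below, with sums of 10943 to 12600.3 in Hetero samples and 10900.3 to 12704 in WT samples. No marker of these lists was called or was at 0 in any sample, and the part of these cells in the immunoproteasome values was not tested.

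Antigen-processing genes for MHC class I, which present proteasome products, gave 2 above 0 and 9 below of 11 tested, with a median log2 change of -0.05 and 0 called. The 2 of smallest p were Tapbp, a loading chaperone, and Tap2, a peptide transporter, with log2 changes of -0.16 and -0.13. Ciita was below the minimum count.

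The other activators, nuclear Psme3 and the large Psme4, both had fitted changes just below 0. Psme3 (chr11:101316213-101323537) had 2996, 2856 and 2741 normalized counts in Hetero samples, against 2915, 2853 and 2852 in WT samples, with the highest and lowest both Hetero (log2 change -0.01). Psme4 (chr11:30771726-30880361) had 2412, 2387 and 2031 in Hetero samples, against 2283, 2472 and 2205 in WT samples (log2 change -0.03), overlapping likewise. Psme3 and Psme4 are 2 of the 8 proteasome genes on chromosome 11, which also carries Cyfip2. The nearest of these to Cyfip2 is Psme4 at 15.3 Mb.

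The 3 base chaperones, which guide assembly of the ATPase ring and leave before the particle is complete, had 2 genes above 0 and 1 below. Psmd10 (chrX:140948429-140956728), also called gankyrin, gave 261, 266 and 265 normalized counts in Hetero samples, against 254, 249 and 214 in WT samples. The groups did not overlap, and WT sample 3 stood apart below the others. The log2 change of Psmd10 was 0.15 (standard error 0.11), the ratio lay between 0.937 and 1.31, and the unadjusted limma p was 0.203. Psmd9 (chr5:123169413-123250131) had 649, 606 and 632 in Hetero samples, against 636, 584 and 597 in WT samples, and Psmd5 (chr2:34849734-34874968) had 798, 865 and 808 in Hetero samples, against 911, 850.1 and 796 in WT samples. Both overlapped, with log2 changes of 0.05 and -0.05.

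Genes that build, feed and regulate the proteasome were likewise not called: 0 in each of 4 further lists. Among assembly factors and inhibitors of the core, 4 of 8 tested were above 0 and 4 below, with a median log2 change of 0.0052. Psmg4, a chaperone of the alpha ring, had 75.5, 105 and 128 normalized counts in Hetero samples, against 102, 127 and 123 in WT samples, the groups overlapping at a log2 change of -0.22, and its relative Psmg3 had a log2 change of 0.06. Paaf1 was not tested. Among proteasome-bound receptors, ubiquitin ligases and deubiquitinases, 8 of 13 were above 0 and 5 below (median 0.01). This list was led by the shuttle factors Ubqln2 and Ubqln1 with log2 changes of 0.08 and 0.07. It also holds Sem1 and Adrm1, with log2 changes of 0.01 and -0.03. Among ubiquitin genes, activating enzymes, the Vcp segregase with its cofactors and the chaperone Hspa5, 5 of 10 were above 0 and 5 below (median 0.00057). Its 2 genes of smallest p were the activating enzyme Uba1 and the ubiquitin fusion gene Rps27a, with log2 changes of 0.09 and 0.13.

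Among the transcription factors and processing enzymes that control proteasome genes, 4 of 13 were above 0 and 9 below, with a median log2 change of -0.04. Of the 13, 1, Nfya, had an unadjusted limma p under 0.05, beside 3.83% of all tested genes. Nfya, a subunit of the factor that reads the CCAAT box, had 730.3, 803 and 817 normalized counts in Hetero samples, against 896, 941 and 871 in WT samples. All 3 Hetero samples lay below all 3 WT samples, where 4.32% of all tested genes did; its log2 change was -0.21 (standard error 0.07), and the unadjusted limma p of 0.0214 did not pass adjustment. Its partners Nfyb and Nfyc had log2 changes of 0.01 and 0.0029. The small Maf gene Mafk also lay below WT without overlap, with a log2 change of -0.23, and Nfe2l1, the main activator of proteasome genes when proteasome activity falls, had a log2 change of -0.04.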

How the data were processed

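Stranded mRNA libraries of 6 prefrontal cortex samples were grouped by sample title. The authors deposited a table of normalized counts, taken here as a signal: values are not whole and column totals are alike. The submitters' processing notes name Salmon 0.11.2, DESeq2 1.19.11, R 3.6.0 and GRCm38, without the step each served. Low values were whole multiples of a read's worth (within 0.02) for 15.5% to 28.0% of values under 60, so whole reads were not recovered and no count test was run. Scaling hides depth, and shallower samples carry more counting error.

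Identifiers were matched to GENCODE M21 (17875 matched, 14 not). The limma package (3.58.1, under R 4.3.3; trend and robust, two-sided) fitted log2(value + 1) of genes with a mean of at least 10, with Benjamini-Hochberg adjustment over all 14969 genes, so fold changes of low genes are understated. Lengths are of the principal transcript, and promoters are from RefSeq. The members and lists were chosen with earlier results of these data known. Values per sample are given for the 3 genes of smallest p in each group, the standard active subunits and all immunoproteasome genes, and in each related list the 2 genes of smallest p are named; Psmg4 and Nfya received values, and Nfyb, Nfyc and Nfe2l1 were named, after their values were seen. Alternatives covered the block, scaling, filter, pseudocount, a residual component, GC content and length, and left-out samples.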

Additional observations from a re-analysis of the deposited data

How the results depend on the processing

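Under 18 alternatives, 0 proteasome genes were called. The number with a fitted change on the other side of 0 was 0 to 12 of 42, the most without Hetero sample 3 and without sample 3 of both groups. Without sample 3 of both groups the median log2 change was -0.02 for the base and -0.05 for the lid. Psmb8 without Hetero sample 3 was the one member to reach an unadjusted p under 0.05 in any alternative. At a mean of at least 50, Psmb9 and Psmb11 were no longer tested. The DESeq2 test was not run, since whole counts were not at hand.

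Cyfip2 passed the threshold with the replicate block (log2 change -0.57, adjusted p = 0.0016, limma), a residual component (-0.57, 0.000309), GC content and length trends removed (-0.55, 0.0366) and sample 3 of both groups left out (-0.56, 0.0134). Leaving out 1 sample gave -0.63 to -0.50. Genes called numbered 2 with the block, 2 with the residual component, 1 with the trends removed, 4 without sample 3 of both groups and 0 to 1 with 1 sample left out. Same-numbered samples' deviations correlated at -0.005, 0.004 and 0.227, so the numbers were not taken as pairs, and not every sample correlated best with its own number. The span of levels per length moved to 14.0 with median transcript lengths. The causes were not tested. At mean normalized counts under 100, as in Psmb8, Psmb9 and Psmb11, counting error adds to the spread between samples.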
